A study of Mus musculus with 21 samples.

Results

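The cell cycle and DNA replication genes comprised 43 named genes, of which 42 were measured among the 18193 genes of the array that have a probe set of their own. They were taken as a list of gene names, with no threshold on their values, drawn up with earlier results of these data known. By role, 10 license and open replication origins, 6 supply nucleotides or work at the replication fork, 5 govern G1 and entry into S phase, 9 drive G2 and entry into mitosis, 11 build the spindle, the kinetochore and the cleavage plane, and 2 act on mitotic chromosomes. The first 16 are called replication genes here, and the 21 measured genes of the last 3 roles mitosis genes. Ccnb1, the mitotic cyclin B1, was the gene without a value, because no probe set was annotated to it alone. Total RNA from the glandular stomach of 21 mice, all labelled female, was hybridised to Affymetrix Mouse Genome 430 2.0 arrays, 1 mouse per array. The methods name C57BL/6 as the strain of the wild-type mice and give none beside the transgenic mice. There were 3 K19-C2mE, 5 K19-Wnt1/C2mE, 3 K19-Nog/C2mE, 5 K19-Wnt1, 2 K19-Nog and 3 wild-type mice. The keratin 19 promoter, which is active in gastric epithelium, drove every transgene: the prostaglandin enzymes COX-2 and mPGES-1 in C2mE, the Wnt ligand Wnt1, and the BMP antagonist noggin (Nog). The compound K19-Wnt1/C2mE and K19-Nog/C2mE mice carry both constructs, so that 11 mice in all carried C2mE and 10 did not. In the study's pathology C2mE stomachs were hyperplastic, Wnt1/C2mE stomachs bore dysplastic tumours and Nog/C2mE stomachs bore hamartomas. The methods give ages between 18 and 65 weeks, and how ages fell over the genotypes is not in the labels, so that age and genotype cannot be told apart.

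A dividing cell copies its genome in S phase and parts the copies in mitosis. In G1, D-type and E-type cyclins switch on cyclin-dependent kinases that inactivate the retinoblastoma pocket proteins, and E2F factors then transcribe the genes of S phase. Origins are licensed when Cdc6 and Cdt1 load the Mcm2 to Mcm7 helicase onto DNA, and GINS and other factors start the helicase. Later, cyclin A, cyclin B, Cdk1, the Aurora and Polo kinases and the factor Foxm1 carry the cell into mitosis, where kinesins and kinetochore proteins divide the chromosomes. In the normal glandular stomach, proliferation is kept to progenitor cells of the isthmus of each gland, while most cells of the gland are differentiated.

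The arrays correlated with the others of their genotype at Pearson r between 0.983 and 0.996 over all 45037 probe sets. Y-linked genes were bright in 9 of the 21 arrays although all mice were labelled female: 2 K19-C2mE mice, 1 K19-Wnt1/C2mE mouse, 4 K19-Wnt1 mice and 2 wild-type mice, and no mouse with Nog. Xist stood between 6.18 and 7.43 in these 9 arrays and between 11.13 and 12.99 in the others. These 9 arrays thus read as male tissue, against the label. They were spread unevenly over the genotypes, so that sex and genotype can be told apart only in part. The labelled tissue was matched by its markers in wild-type mice, in which Atp4a, the parietal cell proton pump, averaged 14.48 and Gkn1, a secreted product of surface mucous cells, 14.95 on the log2 scale. Parietal cell markers lay lower in the mice with C2mE, by a mean over 8 genes of 2.07 ± 0.78 with K19-C2mE, 3.60 ± 0.84 with K19-Wnt1/C2mE and 3.40 ± 1.07 with K19-Nog/C2mE (SD, log2). Chief cell markers stood at -0.84 ± 1.01 with K19-C2mE, -2.10 ± 1.33 with K19-Wnt1/C2mE and -3.46 ± 1.12 with K19-Nog/C2mE, and smooth muscle markers at -0.60, -0.69 and -0.73. Markers of stratified squamous epithelium, a tissue of the forestomach and not of the glands, lay 3.87 ± 0.84 above wild-type in K19-C2mE mice and 1.60 ± 1.20 above it in K19-Wnt1/C2mE mice, and stood at -0.38 ± 0.15 in K19-Nog/C2mE mice. Markers common to epithelial cells lay higher by 1.23 with K19-C2mE, 1.51 with K19-Wnt1/C2mE and 1.10 with K19-Nog/C2mE, and those of B and plasma cells by 0.91, 0.81 and 0.81. The part of these markers in the results was not tested, apart from the squamous level. The calls in K19-C2mE mice are therefore also given with the median of the squamous markers as a covariate, in the account of the counts. In bulk tissue more dividing cells and more RNA per dividing cell cannot be told apart.

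The promoters of 8 genes are shown to set the replication genes beside the mitosis genes, the 4 of each with the smallest p against wild-type in K19-Wnt1/C2mE among those with a promoter sequence. Each window runs from 250 bases before the transcription start through 50 bases from it, in RefSeq sequence of GRCm38.p6, 5′ to 3′ on the strand of the gene. The elements searched, on both strands, are in capitals: the E2F motif (TTTCCCGC, TTTGGCGC, TTTCGCGC or TTTGCCGC), the cell cycle homology region, CHR (TTTGAA), and the CCAAT box (CCAAT). An E2F match and a CCAAT match overlap in the last run of capitals of Mcm7, and 2 E2F matches overlap in Mcm6.
Mcm3 (chr1:20820263-20820562, minus strand): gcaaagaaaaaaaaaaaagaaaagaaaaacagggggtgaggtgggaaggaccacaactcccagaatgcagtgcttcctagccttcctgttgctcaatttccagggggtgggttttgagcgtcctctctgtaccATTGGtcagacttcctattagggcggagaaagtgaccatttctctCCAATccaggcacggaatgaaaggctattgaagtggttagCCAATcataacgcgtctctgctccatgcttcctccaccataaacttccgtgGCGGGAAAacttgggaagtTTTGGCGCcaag
Mcm6 (chr1:128359656-128359955, minus strand): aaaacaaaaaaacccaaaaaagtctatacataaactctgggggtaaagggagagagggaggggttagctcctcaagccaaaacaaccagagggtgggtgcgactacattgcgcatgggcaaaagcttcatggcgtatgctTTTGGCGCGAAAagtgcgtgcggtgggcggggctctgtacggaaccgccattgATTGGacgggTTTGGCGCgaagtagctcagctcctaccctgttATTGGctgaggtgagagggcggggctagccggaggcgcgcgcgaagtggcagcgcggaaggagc
Mcm7 (chr5:138171834-138172133, minus strand): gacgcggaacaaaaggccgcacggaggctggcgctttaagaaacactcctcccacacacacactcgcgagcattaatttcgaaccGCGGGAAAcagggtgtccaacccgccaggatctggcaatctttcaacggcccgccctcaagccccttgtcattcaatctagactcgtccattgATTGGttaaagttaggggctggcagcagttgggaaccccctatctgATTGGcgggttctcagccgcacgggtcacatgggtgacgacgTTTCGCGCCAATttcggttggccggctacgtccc
Cdc6 (chr11:98907901-98908200, plus strand): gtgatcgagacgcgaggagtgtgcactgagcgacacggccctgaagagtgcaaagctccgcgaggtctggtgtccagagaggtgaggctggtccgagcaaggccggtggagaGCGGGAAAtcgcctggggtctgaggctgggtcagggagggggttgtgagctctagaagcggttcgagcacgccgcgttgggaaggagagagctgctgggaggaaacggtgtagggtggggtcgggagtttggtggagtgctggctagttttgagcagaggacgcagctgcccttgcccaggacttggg
Kif23 (chr9:61946750-61947049, minus strand): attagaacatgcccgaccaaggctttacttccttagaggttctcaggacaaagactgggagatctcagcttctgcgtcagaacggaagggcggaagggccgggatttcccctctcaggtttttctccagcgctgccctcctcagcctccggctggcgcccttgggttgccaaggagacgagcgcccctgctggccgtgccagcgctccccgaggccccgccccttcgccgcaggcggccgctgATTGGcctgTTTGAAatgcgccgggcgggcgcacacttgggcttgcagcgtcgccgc
Top2a (chr11:99024140-99024439, minus strand): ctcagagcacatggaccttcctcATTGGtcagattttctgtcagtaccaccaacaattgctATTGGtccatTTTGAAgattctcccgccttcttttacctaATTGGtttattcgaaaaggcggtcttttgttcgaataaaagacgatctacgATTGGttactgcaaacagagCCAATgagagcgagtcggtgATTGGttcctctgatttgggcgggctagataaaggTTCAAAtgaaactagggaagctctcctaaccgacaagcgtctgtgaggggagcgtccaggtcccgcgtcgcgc
Bub1 (chr2:127831810-127832109, minus strand): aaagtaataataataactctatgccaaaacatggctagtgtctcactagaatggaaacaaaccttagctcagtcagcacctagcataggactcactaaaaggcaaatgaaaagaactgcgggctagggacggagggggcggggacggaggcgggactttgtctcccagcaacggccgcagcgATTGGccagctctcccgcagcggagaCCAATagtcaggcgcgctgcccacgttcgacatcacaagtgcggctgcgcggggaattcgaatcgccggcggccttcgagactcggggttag
Prc1 (chr7:80294201-80294500, plus strand): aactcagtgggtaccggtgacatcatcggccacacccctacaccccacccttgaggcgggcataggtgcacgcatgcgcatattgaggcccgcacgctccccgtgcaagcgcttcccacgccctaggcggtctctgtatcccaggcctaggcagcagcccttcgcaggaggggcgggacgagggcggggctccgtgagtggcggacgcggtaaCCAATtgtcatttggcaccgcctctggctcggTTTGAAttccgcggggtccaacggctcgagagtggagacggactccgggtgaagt

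The 4 replication promoters all hold an E2F match and no CHR, whereas Kif23, Top2a and Prc1 hold a CHR near a CCAAT box and no E2F match. Bub1 holds CCAAT boxes alone. The table held promoters of 32 of the 43 genes, and where a gene had more than 1 window, as 3 did, the first was read. An E2F match was found in 6 of 13 replication promoters (46.2%) and 1 of 17 mitosis promoters (5.88%), that of Cdk1, against 2.32% of the 27025 promoters of the table. A CHR stood in 1 of 13 replication promoters (7.69%), that of Mcm2, and in 12 of 17 mitosis promoters (70.6%), against 18.1% of all. The CCAAT box was in 9 of 13 (69.2%) and 15 of 17 (88.2%), against 37.9% of all, and all 12 mitosis promoters with a CHR also held a CCAAT box, a pair found in 7.12% of all promoters. The 2 promoters of G1 genes in the table, Ccne1 and E2f1, held none of the 3 elements. These counts describe letters in a window, and a match is not a shown site.

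Against wild-type, the mice that carried C2mE had higher levels of 17 to 20 of the 42 measured genes, and 1 gene in 1 genotype was lower. Levels are log2 of the deposited signal, so that a difference of 1 is 2-fold, and a gene is called higher or lower at an adjusted p under 0.05 in limma with Benjamini-Hochberg adjustment over all 18193 genes. In K19-C2mE mice 17 of 42 were higher (40.5%, against 15.3% of all genes) and 0 were lower (13.8% of all genes). In K19-Wnt1/C2mE mice 20 were higher (47.6%, against 21.1% of all) and 1, Foxm1, was lower (22.5% of all). In K19-Nog/C2mE mice 18 were higher (42.9%, against 15.9% of all) and 0 were lower (16.7% of all). The absence of lower calls in K19-C2mE and K19-Nog/C2mE was the same in the methods' t-test, and the count past an unadjusted p of 0.05 in either direction was 29 in K19-C2mE and 25 in K19-Nog/C2mE. The median difference of the 42 genes was 0.62, 0.46 and 0.61 for K19-C2mE, for K19-Wnt1/C2mE and for K19-Nog/C2mE, beside -0.02, -0.04 and -0.02 over all genes. Of 22 genes called higher in any of these comparisons, 14 were called in all 3 of them, which share the 3 wild-type mice: Mcm3, Mcm4, Mcm5, Mcm6, Mcm7, Cdc6, Cdt1, Gins2, Tyms, Ccnd1, Ccne1, Aurkb, Bub1 and Top2a. The matching overlap over all genes is not given here, so that this count is a description and not a result particular to these genes.

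The count in K19-C2mE changed with the samples and covariates used. For these alternative fits the share of all genes called is not given here. The counts below are therefore a description and not a result particular to these genes. With the squamous marker level as a covariate 2 of 42 genes were called with K19-C2mE, at a median difference of 0.47, while 16 were called with K19-Wnt1/C2mE and 19 with K19-Nog/C2mE. Of the 17 K19-C2mE calls, those of Mcm3 (1.19, adjusted p = 0.0403) and Ccnd1 (1.22, adjusted p = 0.00924) were kept with this covariate, and the other 15 were lost, Mcm4 at an adjusted p of 0.0565, Cdc6 at 0.074 and the rest between 0.116 (Kif23) and 0.613 (Birc5). The differences of these 15 with the covariate were all positive, between 0.45 (Cdt1) and 1.30 (Kif23). Some were larger than without the covariate, as for Mcm4 (0.93 without, 1.20 with), Cdc6 (0.82, 1.08) and Kif23 (0.89, 1.30). Others were smaller, as for Birc5 (0.88, 0.63), Prc1 (0.78, 0.51) and Aurkb (0.88, 0.66). The covariate was the median of the squamous markers, whose mean lay 3.87 above wild-type in K19-C2mE mice. Squamous level and genotype can therefore be told apart only in part. Without K19-C2mE replicate 3, the mouse with the highest squamous level, 6 were called in K19-C2mE, and without wild-type replicate 2, the wild-type mouse with the highest squamous level, 8 were. Leaving out K19-C2mE replicate 2, the mouse of that genotype with the lowest squamous level (3.1 above wild-type), lost 9 of the 17 calls. The part of the squamous level in these losses was not tested. With only the 12 arrays dim in Y-linked genes, which hold 1 wild-type and 1 K19-C2mE mouse, 0 were called in K19-C2mE (median difference 0.51, 40 of 42 positive), 9 in K19-Wnt1/C2mE and 9 in K19-Nog/C2mE.

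Single calls also depended on single mice. In K19-C2mE, 4 of the 17 calls, those of Mcm4, Mcm6, Cdc6 and Ccnd1, were kept whichever of the compared mice was left out. The losses numbered 11 without K19-C2mE replicate 3, 9 without replicate 2 and 2 (Tyms and Birc5) without replicate 1, and 6, 9 and 6 without wild-type replicates 1, 2 and 3. In K19-Wnt1/C2mE 12 of 21 calls were kept throughout, and those of Mcm5, Cdt1, Pcna, Tyms, Ccne1, Aurkb, Bub1, Prc1 and Top2a were lost without at least 1 mouse, 5 of them without K19-Wnt1/C2mE replicate 3, 3 without replicate 1 and 1 each without replicates 2 and 4, and 6, 8 and 3 without wild-type replicates 1, 2 and 3. In K19-Nog/C2mE 13 of 18 were kept throughout, and Uhrf1, Ccnd2, Ccne2, Aurkb and Top2a were lost without at least 1 mouse, 4 of them without K19-Nog/C2mE replicate 1 and 3 without replicate 3, and 2, 4 and 2 without the same wild-type mice.

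**Figure D1:**
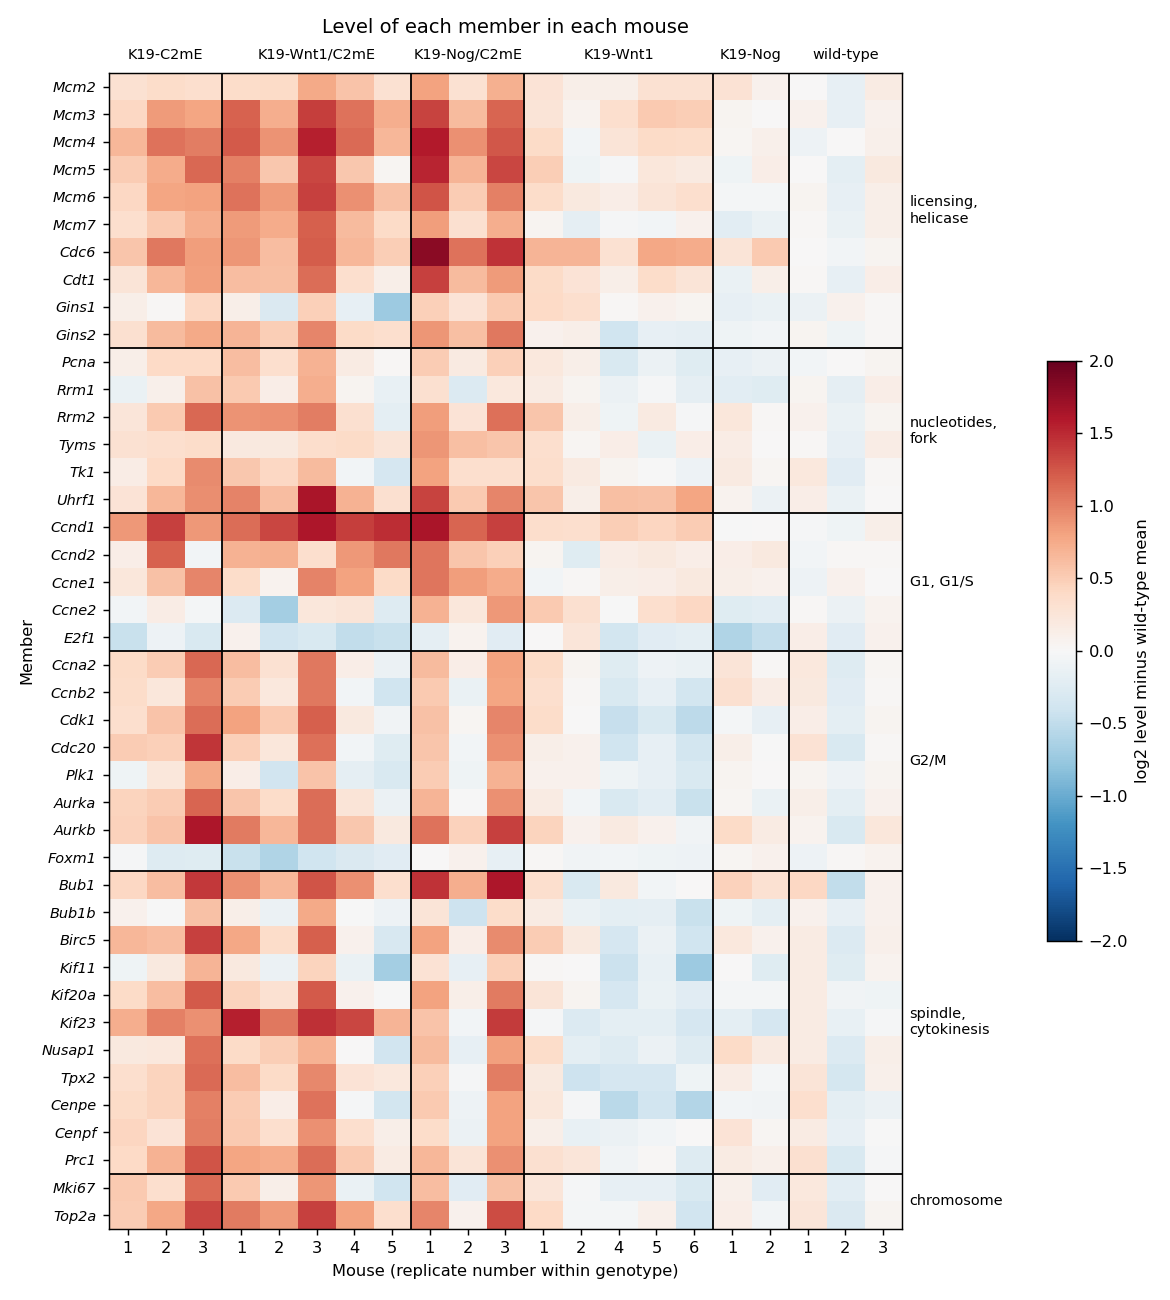
Log2 signal of 42 cell cycle and DNA replication genes (down, by role) in each of the 21 mice (across, by genotype), drawn as the difference from the mean of the 3 wild-type mice on a colour scale that runs between -2 and 2. The columns of the 11 mice with C2mE are mostly above wild-type, with 1 pale mouse in K19-Wnt1/C2mE (replicate 5, mean over all 42 genes 0.08), and the columns of K19-Wnt1 and K19-Nog mice are mostly pale.

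Nearly all genes that license origins and form the helicase were higher. Of 10, 8 were higher with K19-C2mE, 9 with K19-Wnt1/C2mE and 9 with K19-Nog/C2mE, with median differences of 0.62, 0.73 and 0.94, where 15.3%, 21.1% and 15.9% of all genes were higher. With the squamous covariate 1 of the 8 K19-C2mE calls was kept, Mcm3, and 7 were lost. Of the 6 helicase subunits Mcm2 to Mcm7 alone, 5, 6 and 6 were higher, with medians of 0.68, 0.86 and 0.99. The gene that was not called in any of them was Gins1, a GINS subunit, at 0.18, -0.12 and 0.43, and Mcm2 was not called in K19-C2mE, at 0.34 (SE 0.13, adjusted p = 0.062).

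Mcm4, a subunit of the helicase core, had log2 levels of 8.24, 8.66 and 8.60 for the K19-C2mE mice, 8.80, 8.47, 9.13, 8.71 and 8.24 for the K19-Wnt1/C2mE mice, 9.15, 8.48 and 8.81 for the K19-Nog/C2mE mice, 7.95, 7.51, 7.83, 7.96 and 7.94 for the K19-Wnt1 mice, 7.61 and 7.67 for the K19-Nog mice, against 7.47, 7.57 and 7.67 for the wild-type mice. All 11 mice with C2mE lay above all 10 mice without it, the lowest of them at 8.24 beside 7.96 for the highest K19-Wnt1 mouse. Mcm4 differed from wild-type by 0.93 (SE 0.19, adjusted p = 0.00126) with K19-C2mE, 1.10 (SE 0.17, adjusted p = 4.8e-05) with K19-Wnt1/C2mE and 1.24 (SE 0.19, adjusted p = 6.8e-05) with K19-Nog/C2mE. Mcm3, another subunit, had 7.99, 8.42 and 8.37 for the K19-C2mE mice, 8.76, 8.31, 8.97, 8.67 and 8.30 for the K19-Wnt1/C2mE mice, 8.92, 8.21 and 8.75 for the K19-Nog/C2mE mice, against 7.66, 7.42 and 7.66 for the wild-type mice. None of the groups with C2mE overlapped wild-type. Mcm3 differed from wild-type by 0.68 (SE 0.19, adjusted p = 0.0102) with K19-C2mE, 1.02 (SE 0.17, adjusted p = 7.68e-05) with K19-Wnt1/C2mE and 1.05 (SE 0.19, adjusted p = 0.000277) with K19-Nog/C2mE.

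Mcm6 levels were 9.49, 9.86 and 9.87 for the K19-C2mE mice, 10.15, 9.92, 10.43, 9.99 and 9.65 for the K19-Wnt1/C2mE mice, 10.33, 9.58 and 10.08 for the K19-Nog/C2mE mice, against 9.12, 8.91 and 9.17 for the wild-type mice. The 11 mice with C2mE again lay above every mouse without it, narrowly so for K19-C2mE replicate 1. Mcm6 differed from wild-type by 0.67 (SE 0.18, adjusted p = 0.00774) with K19-C2mE, 0.96 (SE 0.16, adjusted p = 8.03e-05) with K19-Wnt1/C2mE and 0.93 (SE 0.18, adjusted p = 0.000499) with K19-Nog/C2mE. Mcm7, a subunit whose promoter is shown above, had 9.90, 10.10 and 10.29 for the K19-C2mE mice, 10.41, 10.31, 10.77, 10.20 and 9.96 for the K19-Wnt1/C2mE mice, 10.40, 9.89 and 10.29 for the K19-Nog/C2mE mice, 9.63, 9.38, 9.55, 9.52 and 9.65 for the K19-Wnt1 mice, 9.36 and 9.44 for the K19-Nog mice, against 9.59, 9.44 and 9.68 for the wild-type mice. It too separated the 11 mice with C2mE from the 10 without, and its K19-Wnt1 and K19-Nog mice lay among or under the wild-type mice. Mcm7 differed from wild-type by 0.53 (SE 0.16, adjusted p = 0.0192) with K19-C2mE, 0.76 (SE 0.14, adjusted p = 0.000323) with K19-Wnt1/C2mE and 0.63 (SE 0.16, adjusted p = 0.00595) with K19-Nog/C2mE.

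Cdc6, the ATPase that loads the helicase, had a different order of groups. Its levels were 6.90, 7.39 and 7.18 for the K19-C2mE mice, 7.22, 6.96, 7.55, 7.0 and 6.83 for the K19-Wnt1/C2mE mice, 8.15, 7.43 and 7.78 for the K19-Nog/C2mE mice, 7.02, 7.02, 6.65, 7.12 and 7.08 for the K19-Wnt1 mice, 6.59 and 6.87 for the K19-Nog mice, against 6.35, 6.28 and 6.39 for the wild-type mice. Every transgenic mouse exceeded every wild-type mouse, K19-Wnt1 and K19-Nog mice included, and the K19-Nog/C2mE mice lay highest on average. Cdc6 differed from wild-type by 0.82 (SE 0.19, adjusted p = 0.00268) with K19-C2mE, 0.77 (SE 0.17, adjusted p = 0.001) with K19-Wnt1/C2mE and 1.45 (SE 0.19, adjusted p = 8.28e-06) with K19-Nog/C2mE. Its loading partner Cdt1 was higher by 0.57 (SE 0.21, adjusted p = 0.0476) with K19-C2mE, 0.56 (SE 0.19, adjusted p = 0.0231) with K19-Wnt1/C2mE and 0.95 (SE 0.21, adjusted p = 0.00181) with K19-Nog/C2mE, and its K19-C2mE call was lost without any of 5 of the 6 mice compared. Gins2, another GINS subunit, was a further gene of this role whose 11 mice with C2mE all exceeded the 10 without it, with differences of 0.57, 0.58 and 0.85 and adjusted p-values of 0.013, 0.00379 and 0.000558. Mcm5 was higher by 0.80, 0.69 and 1.18, on a probe set whose suffix marks possible cross-hybridisation.

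Genes of nucleotide supply and of the fork were called less often than those of origin licensing. Of 6, 1 was called with K19-C2mE, 3 with K19-Wnt1/C2mE and 2 with K19-Nog/C2mE, with median differences of 0.42, 0.32 and 0.59. The shares of all genes called higher were 15.3%, 21.1% and 15.9%, none of them above that of this role. Uhrf1, which guides maintenance DNA methylation behind the fork, had 6.63, 7.01 and 7.28 for the K19-C2mE mice, 7.35, 6.96, 7.99, 7.05 and 6.68 for the K19-Wnt1/C2mE mice, 7.70, 6.88 and 7.33 for the K19-Nog/C2mE mice, 6.91, 6.47, 6.95, 6.94 and 7.14 for the K19-Wnt1 mice, 6.42 and 6.23 for the K19-Nog mice, against 6.48, 6.22 and 6.36 for the wild-type mice. All 11 mice with C2mE exceeded the wild-type mice, and so did 4 of 5 K19-Wnt1 mice. Uhrf1 differed from wild-type by 0.62 (SE 0.26, adjusted p = 0.0871) with K19-C2mE, 0.85 (SE 0.24, adjusted p = 0.00689) with K19-Wnt1/C2mE and 0.95 (SE 0.26, adjusted p = 0.00963) with K19-Nog/C2mE. Tyms, thymidylate synthase, had low signals of 4.79, 4.82 and 4.85 for the K19-C2mE mice, 4.68, 4.68, 4.83, 4.86 and 4.75 for the K19-Wnt1/C2mE mice, 5.37, 5.08 and 5.04 for the K19-Nog/C2mE mice, against 4.50, 4.31 and 4.64 for the wild-type mice. Its groups with C2mE did not overlap wild-type, and K19-Nog/C2mE lay above the other 2. Tyms differed from wild-type by 0.34 (SE 0.11, adjusted p = 0.0294) with K19-C2mE, 0.28 (SE 0.10, adjusted p = 0.0329) with K19-Wnt1/C2mE and 0.68 (SE 0.11, adjusted p = 0.000122) with K19-Nog/C2mE. The calls in K19-C2mE and K19-Wnt1/C2mE were lost when the mean over its probe sets was used.

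Pcna, the sliding clamp of the polymerases, was bright in every mouse, with 11.62, 11.89 and 11.89 for the K19-C2mE mice, 12.10, 11.83, 12.20, 11.67 and 11.53 for the K19-Wnt1/C2mE mice, 12, 11.67 and 11.97 for the K19-Nog/C2mE mice, against 11.43, 11.50 and 11.56 for the wild-type mice. Of the K19-Wnt1/C2mE mice 1 fell among wild-type mice. Pcna differed from wild-type by 0.31 (SE 0.16, adjusted p = 0.168) with K19-C2mE, 0.37 (SE 0.14, adjusted p = 0.046) with K19-Wnt1/C2mE and 0.39 (SE 0.16, adjusted p = 0.0746) with K19-Nog/C2mE. The K19-Wnt1/C2mE call was lost without any 1 of K19-Wnt1/C2mE replicates 1, 2 and 3 or of the 3 wild-type mice. Rrm2, the regulated subunit of ribonucleotide reductase, had 7.83, 8.12 and 8.75 for the K19-C2mE mice, 8.50, 8.52, 8.62, 7.91 and 7.40 for the K19-Wnt1/C2mE mice, 8.44, 7.88 and 8.70 for the K19-Nog/C2mE mice, against 7.69, 7.46 and 7.65 for the wild-type mice. The spread within each group with C2mE was wide, with K19-Wnt1/C2mE replicate 5 below every wild-type mouse, and no comparison with wild-type passed the threshold. Rrm2 differed from wild-type by 0.64 (SE 0.29, adjusted p = 0.104) with K19-C2mE, 0.59 (SE 0.26, adjusted p = 0.0677) with K19-Wnt1/C2mE and 0.74 (SE 0.29, adjusted p = 0.0531) with K19-Nog/C2mE. The other subunit Rrm1 (0.18, 0.26 and 0.08) and thymidine kinase Tk1 (0.50, 0.24 and 0.49) were not called either.

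Among the G1 and G1/S genes, Ccnd1 and Ccne1 were higher in all 3 genotypes with C2mE and E2f1 in none. Ccnd1, cyclin D1, had 10.17, 10.65 and 10.17 for the K19-C2mE mice, 10.41, 10.64, 10.92, 10.68 and 10.77 for the K19-Wnt1/C2mE mice, 10.94, 10.47 and 10.66 for the K19-Nog/C2mE mice, 9.65, 9.64, 9.79, 9.73 and 9.81 for the K19-Wnt1 mice, 9.29 and 9.31 for the K19-Nog mice, against 9.27, 9.22 and 9.41 for the wild-type mice. All 11 mice with C2mE lay above all 10 without it, and the 5 K19-Wnt1 mice lay above the wild-type mice while the 2 K19-Nog mice lay among them. Ccnd1 differed from wild-type by 1.03 (SE 0.14, adjusted p = 1.5e-05) with K19-C2mE, 1.38 (SE 0.12, adjusted p = 4.83e-08) with K19-Wnt1/C2mE and 1.39 (SE 0.14, adjusted p = 3.77e-07) with K19-Nog/C2mE. It had the smallest adjusted p of the 42 genes in each of the 3 genotypes with C2mE. Ccnd2, cyclin D2, had 11.13, 12.17 and 10.93 for the K19-C2mE mice, 11.68, 11.70, 11.33, 11.86 and 12.05 for the K19-Wnt1/C2mE mice, 12.06, 11.55 and 11.45 for the K19-Nog/C2mE mice, against 10.94, 11 and 11.02 for the wild-type mice. In K19-C2mE replicate 2 lay far above the other mice of that genotype and replicate 3 below every wild-type mouse. Ccnd2 differed from wild-type by 0.42 (SE 0.24, adjusted p = 0.204) with K19-C2mE, 0.73 (SE 0.21, adjusted p = 0.00972) with K19-Wnt1/C2mE and 0.70 (SE 0.24, adjusted p = 0.0321) with K19-Nog/C2mE.

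Ccne1, cyclin E1, had 6.56, 6.90 and 7.30 for the K19-C2mE mice, 6.68, 6.39, 7.31, 7.13 and 6.71 for the K19-Wnt1/C2mE mice, 7.40, 7.15 and 7.06 for the K19-Nog/C2mE mice, against 6.22, 6.42 and 6.33 for the wild-type mice. Replicate 2 of K19-Wnt1/C2mE fell within the wild-type range. Ccne1 differed from wild-type by 0.60 (SE 0.19, adjusted p = 0.025) with K19-C2mE, 0.52 (SE 0.17, adjusted p = 0.0195) with K19-Wnt1/C2mE and 0.88 (SE 0.19, adjusted p = 0.00159) with K19-Nog/C2mE. Its relative Ccne2, cyclin E2, a dim gene here, had 4.98, 5.19 and 4.99 for the K19-C2mE mice, 4.76, 4.36, 5.25, 5.29 and 4.78 for the K19-Wnt1/C2mE mice, 5.74, 5.26 and 5.90 for the K19-Nog/C2mE mice, 5.56, 5.36, 5.02, 5.37 and 5.45 for the K19-Wnt1 mice, 4.78 and 4.83 for the K19-Nog mice, against 5.07, 4.93 and 5.11 for the wild-type mice. The 3 K19-Nog/C2mE mice exceeded the wild-type mice, whereas 3 of 5 K19-Wnt1/C2mE mice lay below them. Ccne2 differed from wild-type by 0.02 (SE 0.20, adjusted p = 0.957) with K19-C2mE, -0.15 (SE 0.18, adjusted p = 0.532) with K19-Wnt1/C2mE and 0.60 (SE 0.20, adjusted p = 0.0279) with K19-Nog/C2mE. E2f1, an activator of S phase genes, had 5.73, 6.08 and 5.88 for the K19-C2mE mice, 6.26, 5.79, 5.87, 5.68 and 5.74 for the K19-Wnt1/C2mE mice, 5.99, 6.25 and 5.95 for the K19-Nog/C2mE mice, against 6.32, 5.96 and 6.26 for the wild-type mice. No mouse with C2mE exceeded the wild-type range, and 7 of 11 lay below it. E2f1 differed from wild-type by -0.28 (SE 0.16, adjusted p = 0.201) with K19-C2mE, -0.31 (SE 0.14, adjusted p = 0.0852) with K19-Wnt1/C2mE and -0.12 (SE 0.16, adjusted p = 0.623) with K19-Nog/C2mE. The direction turned with the probe set: of the other 2 for E2f1, 1 gave 0.25, 0.31 and 0.38 and the other -0.01, 0.01 and 0.20 in the same 3 genotypes. In all, 2, 3 and 4 of the 5 G1 and G1/S genes were higher for K19-C2mE, for K19-Wnt1/C2mE and for K19-Nog/C2mE. Over all genes the higher shares were 15.3%, 21.1% and 15.9%.

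Of the 8 measured G2/M genes 1, Aurkb, was higher in each genotype with C2mE, with median differences over the role of 0.68, 0.35 and 0.50. This share was below the 15.3%, 21.1% and 15.9% of all genes called higher. Aurkb, the Aurora kinase of the chromosomal passenger complex, had 6.95, 7.06 and 8.10 for the K19-C2mE mice, 7.53, 7.17, 7.60, 7.04 and 6.69 for the K19-Wnt1/C2mE mice, 7.59, 6.95 and 7.87 for the K19-Nog/C2mE mice, against 6.57, 6.19 and 6.72 for the wild-type mice. Replicate 5 of K19-Wnt1/C2mE fell within the wild-type range. Aurkb differed from wild-type by 0.88 (SE 0.28, adjusted p = 0.0253) with K19-C2mE, 0.71 (SE 0.25, adjusted p = 0.0291) with K19-Wnt1/C2mE and 0.97 (SE 0.28, adjusted p = 0.0125) with K19-Nog/C2mE. Cdk1, the mitotic kinase, had 8.94, 9.17 and 9.71 for the K19-C2mE mice, 9.40, 9.12, 9.78, 8.80 and 8.52 for the K19-Wnt1/C2mE mice, 9.17, 8.64 and 9.57 for the K19-Nog/C2mE mice, against 8.74, 8.40 and 8.65 for the wild-type mice. Replicate 5 of K19-Wnt1/C2mE and replicate 2 of K19-Nog/C2mE lay among wild-type mice. Cdk1 differed from wild-type by 0.67 (SE 0.30, adjusted p = 0.0954) with K19-C2mE, 0.53 (SE 0.26, adjusted p = 0.114) with K19-Wnt1/C2mE and 0.53 (SE 0.30, adjusted p = 0.18) with K19-Nog/C2mE.

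Aurka, the Aurora kinase of the spindle poles, had 7.78, 7.83 and 8.51 for the K19-C2mE mice, 7.90, 7.70, 8.46, 7.60 and 7.22 for the K19-Wnt1/C2mE mice, 8.02, 7.33 and 8.26 for the K19-Nog/C2mE mice, against 7.45, 7.15 and 7.41 for the wild-type mice. The same 2 mice fell within the wild-type range as for Cdk1. Aurka differed from wild-type by 0.71 (SE 0.27, adjusted p = 0.0558) with K19-C2mE, 0.44 (SE 0.24, adjusted p = 0.148) with K19-Wnt1/C2mE and 0.53 (SE 0.27, adjusted p = 0.14) with K19-Nog/C2mE. None of Ccna2, Ccnb2, Cdc20 and Plk1, the cyclins A2 and B2, the activator of the anaphase-promoting complex and Polo-like kinase, was called, with differences between -0.04 (Plk1 in K19-Wnt1/C2mE) and 0.81 (Cdc20 in K19-C2mE). In these 4 genes K19-C2mE replicate 3 was the highest or second highest of the 21 mice.

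Foxm1, a transcription factor of the G2/M genes, was the gene of the 42 called lower against wild-type, in K19-Wnt1/C2mE mice. Its levels were 8.04, 7.82 and 7.83 for the K19-C2mE mice, 7.64, 7.48, 7.67, 7.78 and 7.86 for the K19-Wnt1/C2mE mice, 8.07, 8.17 and 7.91 for the K19-Nog/C2mE mice, 8.10, 8.0, 8.01, 8.0 and 7.98 for the K19-Wnt1 mice, 8.11 and 8.16 for the K19-Nog mice, against 7.98, 8.10 and 8.15 for the wild-type mice. All 5 K19-Wnt1/C2mE mice lay below every wild-type mouse, as did 2 of 3 K19-C2mE mice and 1 of 3 K19-Nog/C2mE mice. Foxm1 differed from wild-type by -0.18 (SE 0.09, adjusted p = 0.168) with K19-C2mE, -0.39 (SE 0.08, adjusted p = 0.00107) with K19-Wnt1/C2mE and -0.03 (SE 0.09, adjusted p = 0.867) with K19-Nog/C2mE. The result depended on the probe set: of its 4 probe sets, that used and another gave -0.39 and -0.41 in K19-Wnt1/C2mE, while the other 2 gave 0.34 and 0.10. Which of them measures the full transcript was not tested.

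Of the 11 spindle, kinetochore and cytokinesis genes, 4 were higher with K19-C2mE, 3 with K19-Wnt1/C2mE and 1 with K19-Nog/C2mE, with medians of 0.64, 0.42 and 0.50. Beside 15.3%, 21.1% and 15.9% of all genes, the share was near that of all genes in K19-Wnt1/C2mE and below it in K19-Nog/C2mE. Kif23, a kinesin of the central spindle, had 8.40, 8.68 and 8.59 for the K19-C2mE mice, 9.22, 8.73, 9.13, 9.01 and 8.35 for the K19-Wnt1/C2mE mice, 8.24, 7.61 and 9.07 for the K19-Nog/C2mE mice, 7.65, 7.39, 7.47, 7.48 and 7.33 for the K19-Wnt1 mice, 7.47 and 7.34 for the K19-Nog mice, against 7.83, 7.52 and 7.65 for the wild-type mice. The K19-C2mE and K19-Wnt1/C2mE mice all exceeded the wild-type mice, and K19-Nog/C2mE replicate 2 fell among them. Kif23 differed from wild-type by 0.89 (SE 0.25, adjusted p = 0.0131) with K19-C2mE, 1.22 (SE 0.23, adjusted p = 0.000288) with K19-Wnt1/C2mE and 0.64 (SE 0.25, adjusted p = 0.062) with K19-Nog/C2mE. Bub1, a kinase of the spindle checkpoint, had 5.95, 6.14 and 6.94 for the K19-C2mE mice, 6.44, 6.18, 6.78, 6.44 and 5.87 for the K19-Wnt1/C2mE mice, 6.97, 6.25 and 7.14 for the K19-Nog/C2mE mice, against 5.94, 5.02 and 5.62 for the wild-type mice. Replicate 5 of K19-Wnt1/C2mE lay within the wild-type range, which was itself wide. Bub1 differed from wild-type by 0.81 (SE 0.28, adjusted p = 0.0382) with K19-C2mE, 0.81 (SE 0.25, adjusted p = 0.0142) with K19-Wnt1/C2mE and 1.26 (SE 0.28, adjusted p = 0.00212) with K19-Nog/C2mE. Its calls in all 3 genotypes were lost when the mean over its probe sets was used. Its other, dimmer probe set gave -0.10, 0.07 and -0.17.

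Prc1, which bundles the microtubules of the central spindle, had 8.44, 8.73 and 9.29 for the K19-C2mE mice, 8.83, 8.78, 9.15, 8.55 and 8.19 for the K19-Wnt1/C2mE mice, 8.71, 8.29 and 8.95 for the K19-Nog/C2mE mice, against 8.35, 7.73 and 8.02 for the wild-type mice. Replicate 5 of K19-Wnt1/C2mE and replicate 2 of K19-Nog/C2mE overlapped wild-type. Prc1 differed from wild-type by 0.78 (SE 0.24, adjusted p = 0.0191) with K19-C2mE, 0.67 (SE 0.21, adjusted p = 0.0174) with K19-Wnt1/C2mE and 0.61 (SE 0.24, adjusted p = 0.0571) with K19-Nog/C2mE. Cenpf, a kinetochore protein, had 7.50, 7.34 and 8.10 for the K19-C2mE mice, 7.59, 7.42, 7.99, 7.42 and 7.19 for the K19-Wnt1/C2mE mice, 7.44, 6.97 and 7.88 for the K19-Nog/C2mE mice, against 7.25, 6.92 and 7.06 for the wild-type mice. It was not called in any of the 3 genotypes. Cenpf differed from wild-type by 0.58 (SE 0.22, adjusted p = 0.0529) with K19-C2mE, 0.45 (SE 0.19, adjusted p = 0.0684) with K19-Wnt1/C2mE and 0.35 (SE 0.22, adjusted p = 0.225) with K19-Nog/C2mE. Birc5, or survivin, a partner of Aurkb, was called in K19-C2mE alone of the 3, at 0.88 (SE 0.32, adjusted p = 0.0483), beside 0.42 (SE 0.29, adjusted p = 0.251) for K19-Wnt1/C2mE and 0.63 (SE 0.32, adjusted p = 0.148) for K19-Nog/C2mE. That call was lost without any 1 of the 6 mice compared. Kif20a, Tpx2, Cenpe, Nusap1, Kif11 and Bub1b were not called, with differences between -0.06 (Kif11 in K19-Wnt1/C2mE) and 0.75 (Kif20a in K19-C2mE).

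Top2a, the topoisomerase that untangles sister chromosomes, had 8.65, 8.92 and 9.49 for the K19-C2mE mice, 9.19, 8.99, 9.51, 8.96 and 8.49 for the K19-Wnt1/C2mE mice, 9.11, 8.22 and 9.46 for the K19-Nog/C2mE mice, 8.54, 8.10, 8.11, 8.24 and 7.76 for the K19-Wnt1 mice, 8.28 and 8.09 for the K19-Nog mice, against 8.39, 7.86 and 8.19 for the wild-type mice. Only K19-Nog/C2mE replicate 2 of the 11 mice with C2mE fell within the wild-type range. Top2a differed from wild-type by 0.87 (SE 0.29, adjusted p = 0.0284) with K19-C2mE, 0.88 (SE 0.26, adjusted p = 0.00959) with K19-Wnt1/C2mE and 0.79 (SE 0.29, adjusted p = 0.043) with K19-Nog/C2mE. The Top2a calls in K19-C2mE and K19-Wnt1/C2mE were lost when the mean over its probe sets was used. Mki67, the marker of cycling cells that coats mitotic chromosomes, had 9.79, 9.59 and 10.41 for the K19-C2mE mice, 9.79, 9.37, 10.15, 9.14 and 8.87 for the K19-Wnt1/C2mE mice, 9.89, 9.05 and 9.86 for the K19-Nog/C2mE mice, 9.51, 9.25, 9.10, 9.11 and 8.95 for the K19-Wnt1 mice, 9.37 and 9.04 for the K19-Nog mice, against 9.48, 9.06 and 9.27 for the wild-type mice. Its K19-C2mE mice lay above wild-type, but 3 of 5 K19-Wnt1/C2mE mice and 1 of 3 K19-Nog/C2mE mice did not. Mki67 differed from wild-type by 0.66 (SE 0.28, adjusted p = 0.0893) with K19-C2mE, 0.20 (SE 0.25, adjusted p = 0.558) with K19-Wnt1/C2mE and 0.33 (SE 0.28, adjusted p = 0.403) with K19-Nog/C2mE.

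**Figure D2:**
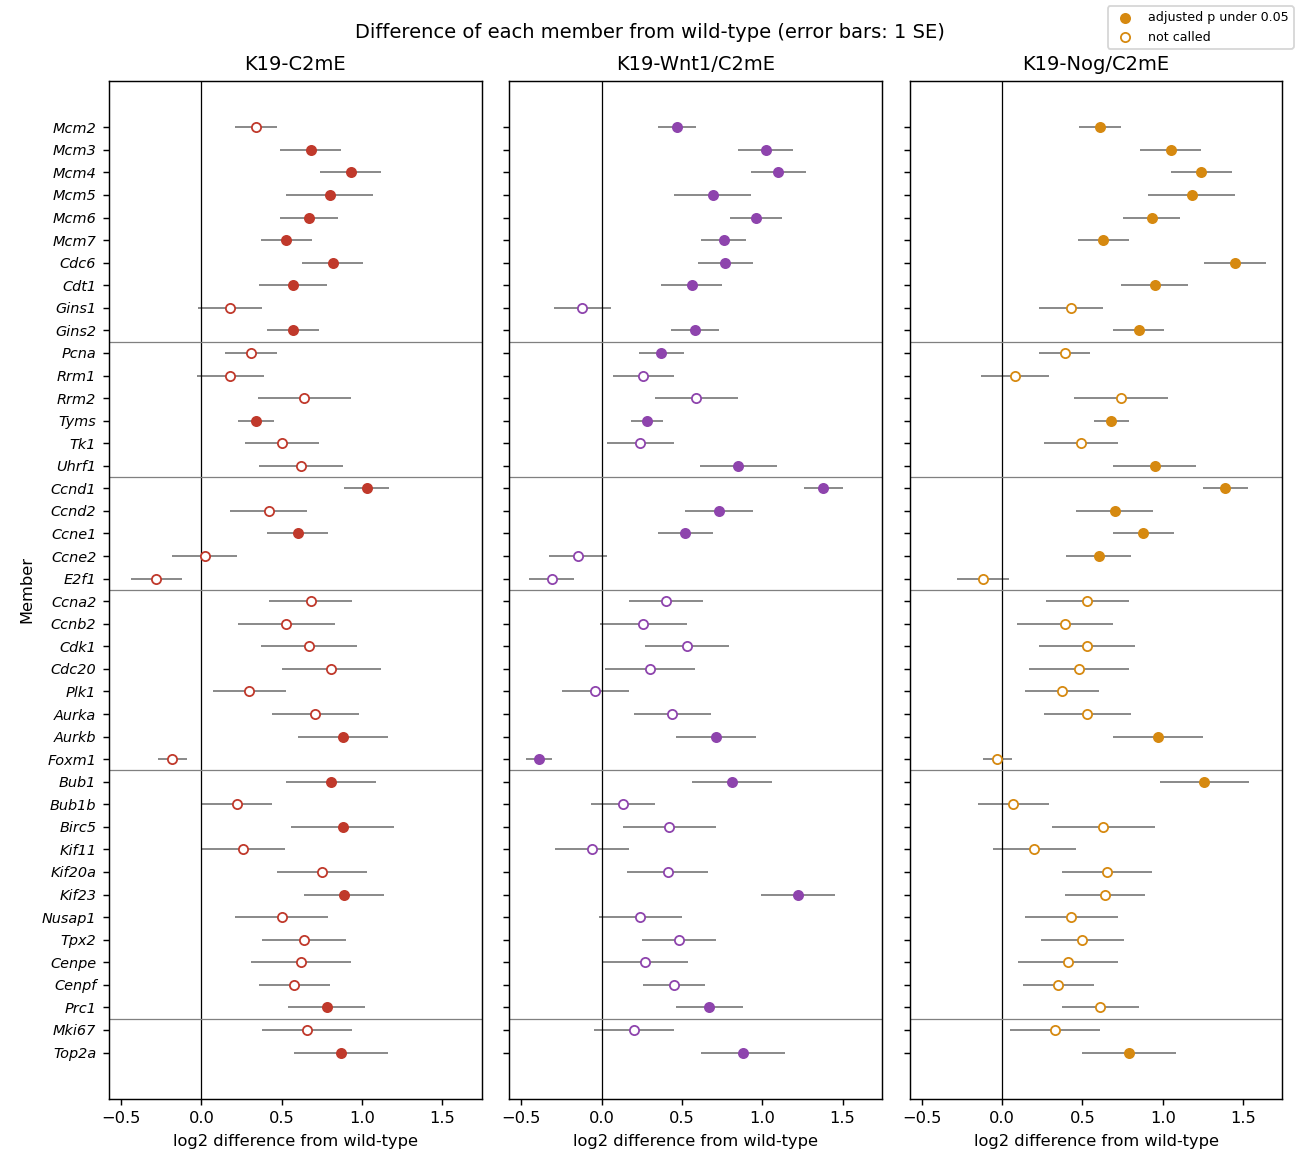
Difference in log2 level from wild-type (horizontal) of 42 genes (down, by role) for K19-C2mE, for K19-Wnt1/C2mE and for K19-Nog/C2mE, with bars of 1 SE and filled points at an adjusted p under 0.05. Origin licensing genes are filled in all 3 panels apart from Gins1 and, in K19-C2mE, Mcm2, while most mitosis genes are open points right of 0 with longer bars.

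A larger share of the replication genes than of the mitosis genes passed the test in each genotype with C2mE, and the residual spread of the mitosis genes was wider. The difference between the shares was not tested. In K19-C2mE 9 of 16 replication genes (56.2%) and 6 of 21 mitosis genes (28.6%) were higher. The counts were 12 (75.0%) and 5 (23.8%) for K19-Wnt1/C2mE mice, and 11 (68.8%) and 3 (14.3%) for K19-Nog/C2mE mice. Of all genes 15.3% were higher with K19-C2mE, 21.1% with K19-Wnt1/C2mE and 15.9% with K19-Nog/C2mE, so that the mitosis genes were called about as often as genes at large in the compound genotypes. With the squamous covariate 1 replication gene and 0 mitosis genes were called in K19-C2mE, at medians of 0.49 and 0.46. The median difference of replication genes was 0.57, 0.59 and 0.80, and that of mitosis genes 0.67, 0.41 and 0.50, in the same 3 genotypes. All but 1 of the mitosis genes were above 0 with K19-C2mE and with K19-Nog/C2mE (20 of 21 each), and 18 of 21 with K19-Wnt1/C2mE. The residual SD between mice of a genotype had a median of 0.25 for replication genes and 0.37 for mitosis genes, against 0.15 for all genes. The median SE in K19-C2mE was accordingly 0.19 for replication genes and 0.28 for mitosis genes.

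**Figure D3:**
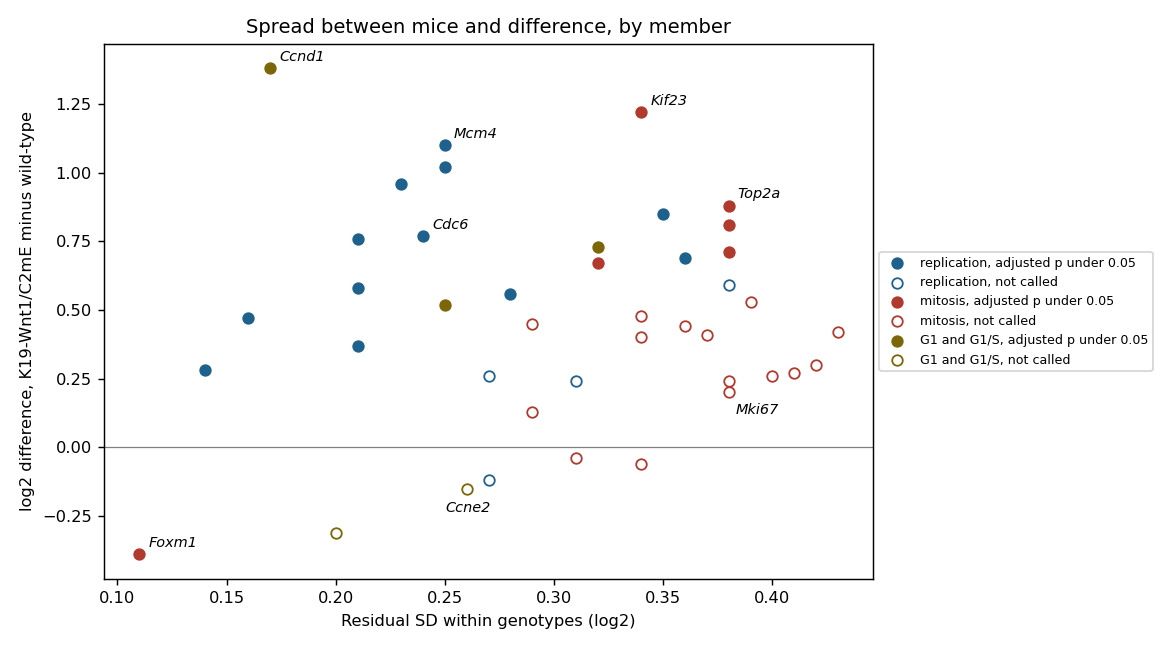
For each of 42 genes, the residual SD of log2 level between mice of a genotype (horizontal) and the difference of K19-Wnt1/C2mE from wild-type (vertical, log2), with filled points at an adjusted p under 0.05. The replication genes sit mostly at the lower SDs and the mitosis genes at the higher ones (medians 0.25 and 0.37), and many open mitosis points lie at differences at which replication points are filled.

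By mouse, the mean over the 16 replication genes minus the wild-type mean was 0.30, 0.57 and 0.75 with K19-C2mE, 0.73, 0.51, 1.03, 0.48 and 0.18 with K19-Wnt1/C2mE, 1.04, 0.48 and 0.86 with K19-Nog/C2mE, 0.35, 0.13, 0.07, 0.20 and 0.19 in K19-Wnt1, 0.01 and 0.01 in K19-Nog, and 0.03, -0.12 and 0.09 in wild-type. All 11 mice with C2mE lay above the wild-type mice, and K19-Wnt1 mice overlapped the lower end of them. The mean over the 21 mitosis genes was 0.35, 0.43 and 1.06 with K19-C2mE, 0.57, 0.31, 0.96, 0.22 and -0.08 with K19-Wnt1/C2mE, 0.62, 0.02 and 0.88 with K19-Nog/C2mE, 0.24, -0.04, -0.22, -0.14 and -0.30 in K19-Wnt1, 0.13 and -0.02 in K19-Nog, and 0.18, -0.23 and 0.04 in wild-type. Here 1 K19-Wnt1/C2mE and 1 K19-Nog/C2mE mouse fell within the wild-type range. The replication mean minus the mitosis mean averaged -0.07 ± 0.22 with K19-C2mE, 0.19 ± 0.08 with K19-Wnt1/C2mE, 0.28 ± 0.26 with K19-Nog/C2mE, 0.28 ± 0.15 in K19-Wnt1, -0.04 ± 0.10 in K19-Nog and 0 ± 0.14 in wild-type (SD). It was above 0 in all 5 K19-Wnt1/C2mE mice and all 5 K19-Wnt1 mice, in 2 of 3 K19-Nog/C2mE mice, and in 1 of 3 K19-C2mE, 1 of 2 K19-Nog and 2 of 3 wild-type mice. No test was made of these means, since the genes were chosen with results known.

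**Figure D4:**
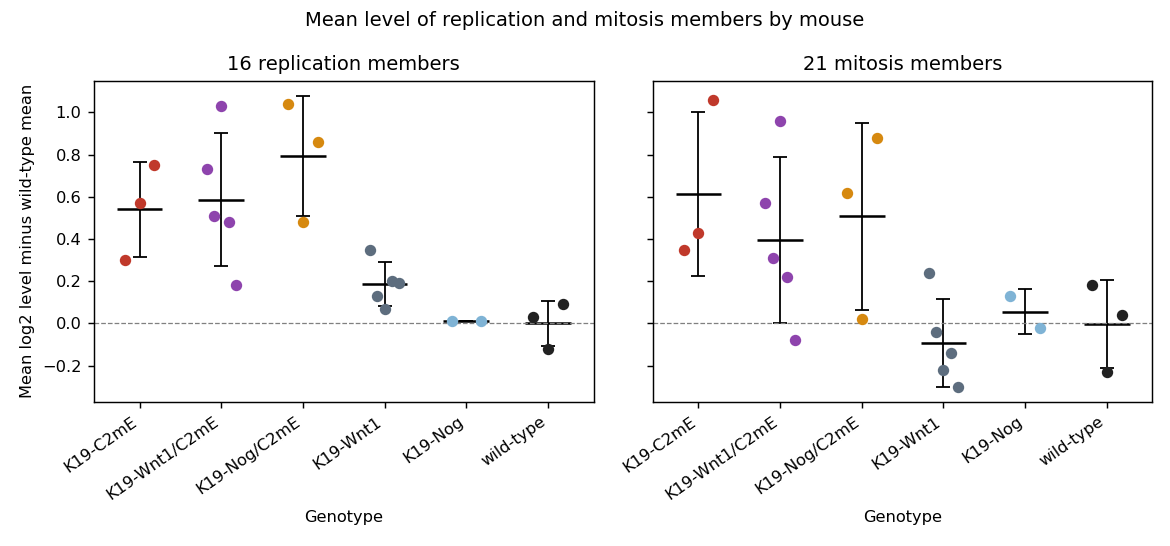
Mean log2 level per mouse, as the difference from the wild-type mean, of 16 replication genes and of 21 mitosis genes, 1 panel each, by genotype, with each group's mean as a line and its SD as bars. The K19-Wnt1/C2mE mice average 0.59 for replication genes and 0.40 for mitosis genes, with 1 mouse at -0.08 in the mitosis panel, and the K19-Wnt1 mice average 0.19 and -0.09.

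The compound mice were also set against the mice with Wnt1 or Nog alone. K19-Wnt1/C2mE against K19-Wnt1 had 20 genes higher (22.8% of all genes) and 2 lower, Ccne2 and Foxm1 (21.8% of all), with 8 of 16 replication and 9 of 21 mitosis genes among the higher ones and median differences of 0.38 and 0.49. The 22 calls fell to 9 with the squamous covariate and to 5 on the arrays dim in Y-linked genes. K19-Nog/C2mE against K19-Nog had 17 higher (14.0% of all) and 0 lower (13.8% of all), with 12 replication and 2 mitosis genes and medians of 0.86 and 0.44, of which 22 of the 42 passed an unadjusted p of 0.05 in either direction and 0 were called by the methods' t-test after adjustment. The 17 calls were 16 with the squamous covariate, 11 on the arrays dim in Y-linked genes, 8 without K19-Nog replicate 1 and 11 without K19-Nog replicate 2. Smooth muscle markers stood at -0.73 ± 0.25 in K19-Nog/C2mE mice and at 2.17 ± 0.33 in K19-Nog mice from the wild-type mean (SD), and their part in this comparison was not tested. Kif23 differed by 1.42 (SE 0.20, adjusted p = 9.59e-06) for K19-Wnt1/C2mE against K19-Wnt1 and by 0.90 (SE 0.28, adjusted p = 0.023) for K19-Nog/C2mE against K19-Nog. Ccnd1 differed by 0.96 (SE 0.11, adjusted p = 5.75e-07) and by 1.39 (SE 0.15, adjusted p = 1.72e-06) in the same comparisons.

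Wnt1 or Nog without C2mE gave no call among the 42 genes. K19-Wnt1 against wild-type had 0 (0.0110% of all genes in either direction), with 3 genes at an unadjusted p under 0.05 in limma and 7 in the methods' t-test. K19-Nog against wild-type had 0 (3.12% of all), with 1 gene at an unadjusted p under 0.05 in limma and 3 in the t-test. The largest of these differences was that of Cdc6 in K19-Wnt1, 0.64 (SE 0.17, adjusted p = 0.432). Replication genes had a median of 0.17 in K19-Wnt1 and 0.01 in K19-Nog, and mitosis genes -0.08 and 0.05.

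Between genotypes with C2mE few of the genes were called. K19-Wnt1/C2mE against K19-C2mE had 0 calls (7.83% of all genes), with 2 genes at an unadjusted p under 0.05 in limma and 0 in the t-test. K19-Nog/C2mE against K19-C2mE had 0 (2.59% of all), with 4 in limma and 2 in the t-test. K19-Wnt1/C2mE against K19-Nog/C2mE had 4 lower (5.07% of all): Cdc6 at -0.67 (SE 0.17, adjusted p = 0.0114), Tyms at -0.41 (SE 0.10, adjusted p = 0.0117), Ccne2 at -0.74 (SE 0.18, adjusted p = 0.00983) and Foxm1 at -0.36 (SE 0.08, adjusted p = 0.00765). The methods' t-test gave 4 at an unadjusted p under 0.05 and 0 after adjustment, limma 7 before adjustment, and without K19-Nog/C2mE replicate 1 the calls fell to 1. With the squamous level as a covariate 0 remained called.

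The effect of adding C2mE was also set between backgrounds. The interaction of Wnt1 with C2mE had 0 calls (1.47% of all genes), with 1 gene at an unadjusted p under 0.05, and that of Nog with C2mE 0 (1.20% of all), with 2. A contrast added after the data were seen, the change with C2mE beside Wnt1 minus that beside Nog, called 2 genes lower (4.90% of all in either direction): Cdc6 by -0.93 (SE 0.25, adjusted p = 0.0408) and Ccne2 by -1.29 (SE 0.27, adjusted p = 0.00913). For Ccne2 both changes had been called singly, -0.46 (SE 0.15, adjusted p = 0.0201) for K19-Wnt1/C2mE against K19-Wnt1 and 0.83 (SE 0.22, adjusted p = 0.00885) for the K19-Nog/C2mE mice set beside K19-Nog. The contrast fell to 0 calls on the arrays dim in Y-linked genes.

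**Figure D5:**
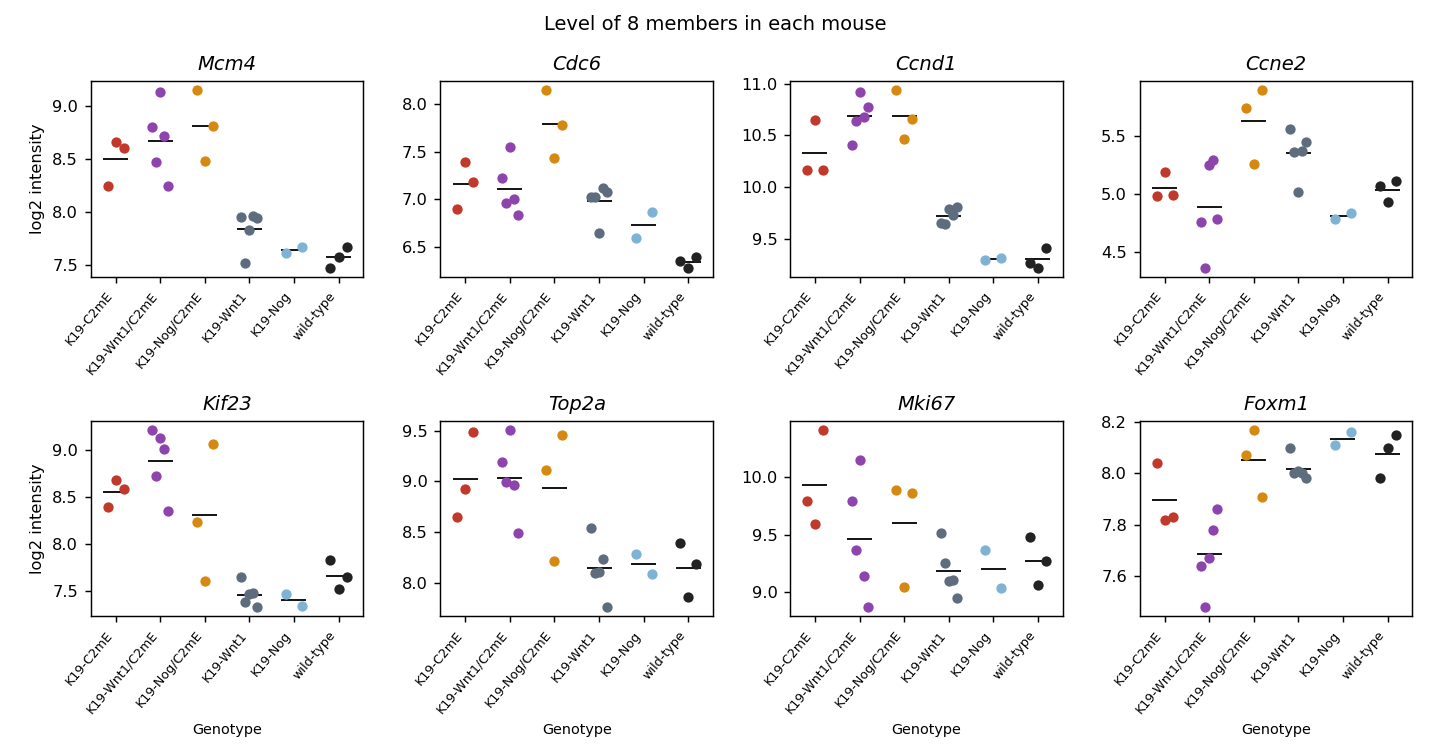
Log2 level per mouse of Mcm4, Cdc6, Ccnd1, Ccne2, Kif23, Top2a, Mki67 and Foxm1, 1 panel each, by genotype, with each group's mean as a line. Mcm4 and Ccnd1 separate the 11 mice with C2mE from the 10 without, Ccne2 is highest on average in K19-Nog/C2mE (5.26 to 5.90) and Foxm1 lowest in K19-Wnt1/C2mE (7.48 to 7.86).

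Within genotypes the mitosis genes moved together from mouse to mouse. After each genotype's mean was removed, the median Pearson r over pairs of genes was 0.89 among mitosis genes, 0.75 among replication genes and 0.72 between the 2, over the 21 arrays, whose values share the array and its tissue piece. Each gene was also compared with the mean of the mitosis genes, from which a mitosis gene was itself left out. Against this mean r was 0.99 for Aurka, 0.98 for Ccna2 and Ccnb2, 0.97 for Cdc20 and 0.96 for Birc5, Cdk1, Cenpe, Mki67 and Top2a, and 0.95 for the replication gene Rrm1. Kif23 followed it less (0.73), Tyms little (0.28) and Ccnd1 hardly at all (0.05), while Ccnd2 and Foxm1 ran against it (-0.47 each). These values are a description.

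Other genes of the same pathways were counted from lists of gene names. Of 37 other replication genes, 10, 15 and 15 were higher and 1, 3 and 1 lower for K19-C2mE, for K19-Wnt1/C2mE and for K19-Nog/C2mE, with medians of 0.28, 0.28 and 0.32. The higher shares were 27.0%, 40.5% and 40.5%, where 15.3%, 21.1% and 15.9% of all genes were higher. Of all genes 13.8%, 22.5% and 16.7% were lower. Pold3, a subunit of polymerase delta, averaged 9.16 with K19-C2mE, 9.84 with K19-Wnt1/C2mE, 9.40 with K19-Nog/C2mE and 7.91 in wild-type, a difference of 1.94 ± 0.19 with K19-Wnt1/C2mE (SE, adjusted p = 1.58e-07). Pole, the catalytic subunit of polymerase epsilon, was higher by 1.55 there (adjusted p = 1.17e-08) and Lig1, the ligase that joins Okazaki fragments, by 0.87 (adjusted p = 4.21e-05). Gmnn, geminin, which inhibits Cdt1, was lower in all 3, at -1.0, -1.02 and -0.84 (adjusted p = 0.000169, 2.03e-05 and 0.000692), while Cdt1 itself was higher.

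Of 42 other mitosis genes, 10, 7 and 12 were higher and 1 was lower in each, with medians of 0.46, 0.32 and 0.52. The higher shares were 23.8%, 16.7% and 28.6%, beside 15.3%, 21.1% and 15.9% of all genes, so that the one in K19-Wnt1/C2mE was under it. Lower calls made up 13.8%, 22.5% and 16.7% of all genes. Cdc25b, a phosphatase that activates Cdk1, was higher by 1.36 in K19-Wnt1/C2mE (adjusted p = 8.37e-09), Nek2, a centrosome kinase, by 1.20 (adjusted p = 0.000568), Cenpi, a centromere protein, by 1.01 (adjusted p = 0.00227) and Cks1b, a subunit of Cdk complexes, by 0.93 (adjusted p = 0.0034). Of 19 G1 kinases, E2F and Myb factors 5, 5 and 6 were higher (26.3%, 26.3% and 31.6%) and 2 lower in each. Beside the 15.3%, 21.1% and 15.9% of all genes called higher, the share in K19-Wnt1/C2mE was near that of all genes. The lower calls stood beside 13.8%, 22.5% and 16.7% of all genes. E2f3 was higher by 0.97 (adjusted p = 2.12e-06), Cdk6 by 0.86 (adjusted p = 4.56e-06) and Tfdp1 by 0.58 (adjusted p = 0.000317) in K19-Wnt1/C2mE. Tfdp2, a dimer partner of E2F factors, differed by -1.36 there (adjusted p = 8.24e-08).

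Of 16 inhibitors and pocket proteins 3, 4 and 4 were higher (18.8%, 25.0% and 25.0%, beside 15.3%, 21.1% and 15.9% of all genes) and 4, 5 and 5 lower (13.8%, 22.5% and 16.7% of all genes were lower). Higher calls in this list were thus near the share of all genes in K19-C2mE and K19-Wnt1/C2mE. Cdkn1c, the Cdk inhibitor p57, averaged 6.80 with K19-C2mE, 6.77 with K19-Wnt1/C2mE, 6.52 with K19-Nog/C2mE, 10.09 in K19-Wnt1, 10.18 in K19-Nog and 10.06 in wild-type. The highest mouse with C2mE stood at 7.13 and the lowest without it at 9.75, and the differences from wild-type were -3.26, -3.29 and -3.53 (adjusted p = 3.22e-08, 1.89e-09 and 6.6e-09). Cdkn2b, the Cdk4 and Cdk6 inhibitor p15, differed by -1.27, -2.32 and -1.18, with an adjusted p of 5.73e-10 in K19-Wnt1/C2mE. Gadd45a, a stress-response gene, was higher by 1.08 in K19-Wnt1/C2mE (adjusted p = 0.00157) and Btg1, an antiproliferative gene, by 0.90 (adjusted p = 2.61e-06). Parietal cell markers were lower in the same mice (mean differences between -2.07 and -3.60), and their part in the change of Cdkn1c was not tested.

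Other probe sets gave a similar sign for most genes. For 32 of the 42 genes the array held 61 further probe sets, of which 47, 45 and 44 had the sign of the one used for K19-C2mE, for K19-Wnt1/C2mE and for K19-Nog/C2mE. Tpx2, a spindle assembly factor, was an exception beside Foxm1: the probe set used gave 0.64, 0.48 and 0.50, and others gave -0.43, -0.42 and -0.28 or -0.57, -0.61 and -0.38. Among further exceptions, Tyms had dimmer probe sets at -0.24, -0.19 and -0.04 and at -0.23, -0.01 and -0.15. A dimmer probe set of Mcm3 gave -0.23, -0.30 and -0.31, and one of Nusap1 gave -0.12, -0.31 and -0.16. Mcm5, Rrm2, Ccne1, E2f1, Cdc20 and Aurkb were each read from a probe set that may cross-hybridise with related sequences.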

How the data were processed

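Glandular stomach RNA of 21 mice was measured on 1 Affymetrix Mouse Genome 430 2.0 array each, and the arrays were grouped by the genotype in their labels. The authors deposited intensity values normalised by robust multi-array average (RMA), run with Affymetrix Power Tools under Rosetta Resolver. They also deposited log10 ratios to the mean of the wild-type arrays, used here as an alternative. Array medians of the intensity lay between 66.0 and 68.8. The annotation gave 1 gene for 34945 probe sets, several for 932 and none for 9160, and the probe set with the highest mean log2 signal among those with 1 gene stood for each of 18193 genes. Because probe sets differ in affinity, levels were compared between mice and not between genes.

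One linear model on log2 intensity with a term per genotype was fitted to all genes on all arrays with limma 3.58.1 in R 4.3.3, and p-values were adjusted by Benjamini-Hochberg within each comparison. The script was tested on simulated data. The number of arrays, 2 to 5 per genotype, limits the precision. Genes, lists and tests were chosen with earlier results of these data known. Per-mouse values are given for up to 4 genes of each role with the smallest p in K19-Wnt1/C2mE against wild-type, and for each gene of a comparison with 5 or fewer calls; from each other list up to 4 genes with the largest called change are named. Cell type means are over 8 parietal, 13 measured squamous and 6 general epithelium markers, and the Y-linked level is over 3 genes. Promoters were read from RefSeq windows of GRCm38.p6. Alternatives were another choice of probe set, centring, a filter on dim genes, a replicate block, another variance model, the deposited ratios, the methods' t-test, covariates for squamous and Y-linked level, the arrays dim in Y-linked genes alone, and each array left out.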

Additional observations from a re-analysis of the deposited data

Results flagged for a closer look

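Single mice that stood apart from the others of their genotype were sought in 88 sets of 5 mice, and 5 were found by Dixon's criterion, which chance meets in about 1 of 20 sets. Mcm4 was 7.51 in K19-Wnt1 replicate 2, against 7.83 to 7.96 in the other 4 mice. Cdc6 was 6.65 in K19-Wnt1 replicate 4, against 7.02 to 7.12 in the others. Foxm1 was 8.10 in K19-Wnt1 replicate 1, against 7.98 to 8.01 in the others, and Nusap1 was 7.80 in the same mouse, against 7.18 to 7.33. Bub1b was 8.27 in K19-Wnt1/C2mE replicate 3, against 7.41 to 7.63 in the others.

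The change with C2mE differed between the Wnt1 and the Nog background for Cdc6, by -0.93 (limma, adjusted p = 0.0408), and for Ccne2, by -1.29 (adjusted p = 0.00913). This contrast was added after the data were seen. Ccne2 was higher with C2mE in 3 of 3 K19-Nog/C2mE mice against both K19-Nog mice, and lower in the mean of K19-Wnt1/C2mE mice against K19-Wnt1 mice.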

How the results depend on the processing

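Counts of called genes kept their direction throughout, and those for which a count moved by over 1.5 times are given here. The cause was not tested, and the share of all genes called under each alternative is not given. With the replicate number as a block, K19-C2mE against wild-type had 31 calls, K19-Wnt1/C2mE 36 and K19-Nog/C2mE 30. The numbers do not pair the mice: 9 of 38 same-numbered pairs and 23 of 142 other pairs correlated over 0.1 (range of the same-numbered pairs -0.348 to 0.183), and 4 of 20 arrays correlated best with their own number. The methods' t-test after adjustment called 4, 12 and 6 against wild-type, 0 in K19-Nog/C2mE against K19-Nog and 0 in K19-Wnt1/C2mE against K19-Nog/C2mE; before adjustment it passed 7 in K19-Wnt1 and 3 in K19-Nog against wild-type and 2 in K19-Nog/C2mE against K19-C2mE. With the squamous level as a covariate 2 were called in K19-C2mE against wild-type, 9 in K19-Wnt1/C2mE against K19-Wnt1 and 0 in K19-Wnt1/C2mE against K19-Nog/C2mE. On the 12 arrays dim in Y-linked genes, an alternative added after the data were seen in which a genotype may hold 1 mouse assumed to vary like the others, the counts were 0, 9 and 9 against wild-type, 5 in K19-Wnt1/C2mE against K19-Wnt1, 11 in K19-Nog/C2mE against K19-Nog and 0 in K19-Wnt1/C2mE against K19-Nog/C2mE. The last comparison had 2 calls with the mean of probe sets and 0 when fitted on its own mice. The added contrast of C2mE beside Wnt1 against beside Nog had 4 calls with the mean of probe sets, 0 on the arrays dim in Y-linked genes, and 1 each without dim genes, on its own mice and with either covariate. Leaving out 1 mouse gave 6 to 20 calls in K19-C2mE, 14 to 24 in K19-Wnt1/C2mE and 14 to 26 in K19-Nog/C2mE against wild-type, 0 in K19-Wnt1 and K19-Nog, 16 to 27 in K19-Wnt1/C2mE against K19-Wnt1, 8 to 21 in K19-Nog/C2mE against K19-Nog, 0 to 2 in K19-Wnt1/C2mE and 0 to 1 in K19-Nog/C2mE against K19-C2mE, 1 to 6 in K19-Wnt1/C2mE against K19-Nog/C2mE and 0 to 3 in the added contrast. The low ends came from K19-C2mE replicate 3 (6), wild-type replicate 2 (8), K19-C2mE replicate 2 (9) and wild-type replicate 1 (11) in K19-C2mE against wild-type, from K19-Nog replicates 1 (8) and 2 (11) in K19-Nog/C2mE against K19-Nog, and from K19-Nog/C2mE replicate 1 (1) in K19-Wnt1/C2mE against K19-Nog/C2mE. Of single genes, Tpx2 in K19-Wnt1/C2mE against K19-Wnt1 turned to -0.05 with the mean of probe sets. The replication mean minus the mitosis mean stayed above 0 in K19-Wnt1/C2mE, K19-Nog/C2mE and K19-Wnt1 in each mouse left out (0.11 to 0.24, 0.20 to 0.43 and 0.20 to 0.33), but not in K19-C2mE (-0.18 to 0.05) or K19-Nog (-0.12 to 0.03). The deposited ratios, centring and the other variance model moved no count by over 1.5 times. Tyms, Ccne2, E2f1 and Bub1 lie below the median signal of all probe sets (6.09), where arrays resolve changes less well.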
